A study of Mus musculus with 2 samples.

Results

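The mitosis and kinetochore genes were the 86 rows of 14261 whose symbols name subunits of the kinetochore, condensin, cohesin and the anaphase-promoting complex, or cyclins, kinases, checkpoint and spindle proteins that act in cell division. They were taken by a rule on symbols that uses no measured value. RNA-seq was done on 2 suspension cultures of TRE-ESC, the label of a mouse embryonic stem (ES) cell. Both were grown in dishes of low adsorption in N2B27 medium with LIF, a cytokine, and 2i, a pair of kinase inhibitors that together with LIF keeps such cells in naive pluripotency, and both were labelled 36 h. One culture received no agent and the other received doxycycline (dox), a drug used to switch on tetracycline-controlled transgenes. The series concerns c-Jun, the product of Jun, and Jun stood at 55 without dox and at 3821 with dox. The sources used here do not give the parental line, the number of clones or the genotype of the cells. There was 1 library per group, so no test was possible between the groups and no value has an error from replicates. A gene's value is a whole number on the authors' normalized scale, which is not a read count and does not keep the depth of a library. It can be compared between the libraries for 1 gene, but not between genes, since it is not known to be per length.

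Mitosis starts when Cdk1 bound to a B-type cyclin is activated by Cdc25 phosphatases. Condensin then compacts the chromosomes, cohesin holds the sister chromatids together, and the kinetochore, built on centromeres that carry the histone variant Cenpa, ties them to the spindle. The spindle checkpoint keeps the anaphase-promoting complex, a ubiquitin ligase, inactive until all kinetochores are attached, after which cohesin is cleaved and the cell divides. Many of these genes are transcribed mainly in G2 and mitosis, through a short promoter element called the cell cycle genes homology region, while others are transcribed at all stages. Mouse ES cells divide fast, with short gap phases.

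Most of these genes were slightly lower with dox, and few by much. The ratio was taken after adding 10 to each value, and genes were tested where the larger value was at least 50, which 84 of the 86 members passed. Of these, 72 had a log2 ratio below 0, which is 85.7%, whereas 54.9% of all 8547 tested genes did, and 66 lay below the median of all tested genes. The median log2 ratio was −0.39 for the members and −0.08 for all tested genes. At 1.5-fold, 23 members were lower (27.4%) against 17.7% of all tested genes, and only 1, the anillin gene Anln, was higher (1.19%) against 16.7%. At 2-fold, 5 members were lower, which is 5.95% and close to the 5.49% of all tested genes, and 0 were higher against 9.23%. The shift of the members was therefore seen in many small differences, and the count past 2-fold is no result about them. The median value of the 84 members was 275 without dox and 214 with dox, while that of all tested genes was 149 in both. Both libraries had the same quartiles over all genes, taken to come from the authors' normalization. The equal medians of all tested genes are therefore no result about the other genes. How far that normalization moved the small ratios of the members is not known. Among the 47 members with a larger value of at least 250, 39 had a ratio below 0 (83.0%), against 53.8% of all 3118 genes with such a value. The median was −0.30 for these members and −0.06 for those genes. With a pseudocount of 50 in place of 10, 13 members were at least 1.5-fold lower (15.5%), against 10.5% of all tested genes, and 2 at least 2-fold lower (2.38% against 2.00%).

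**Figure D1:**
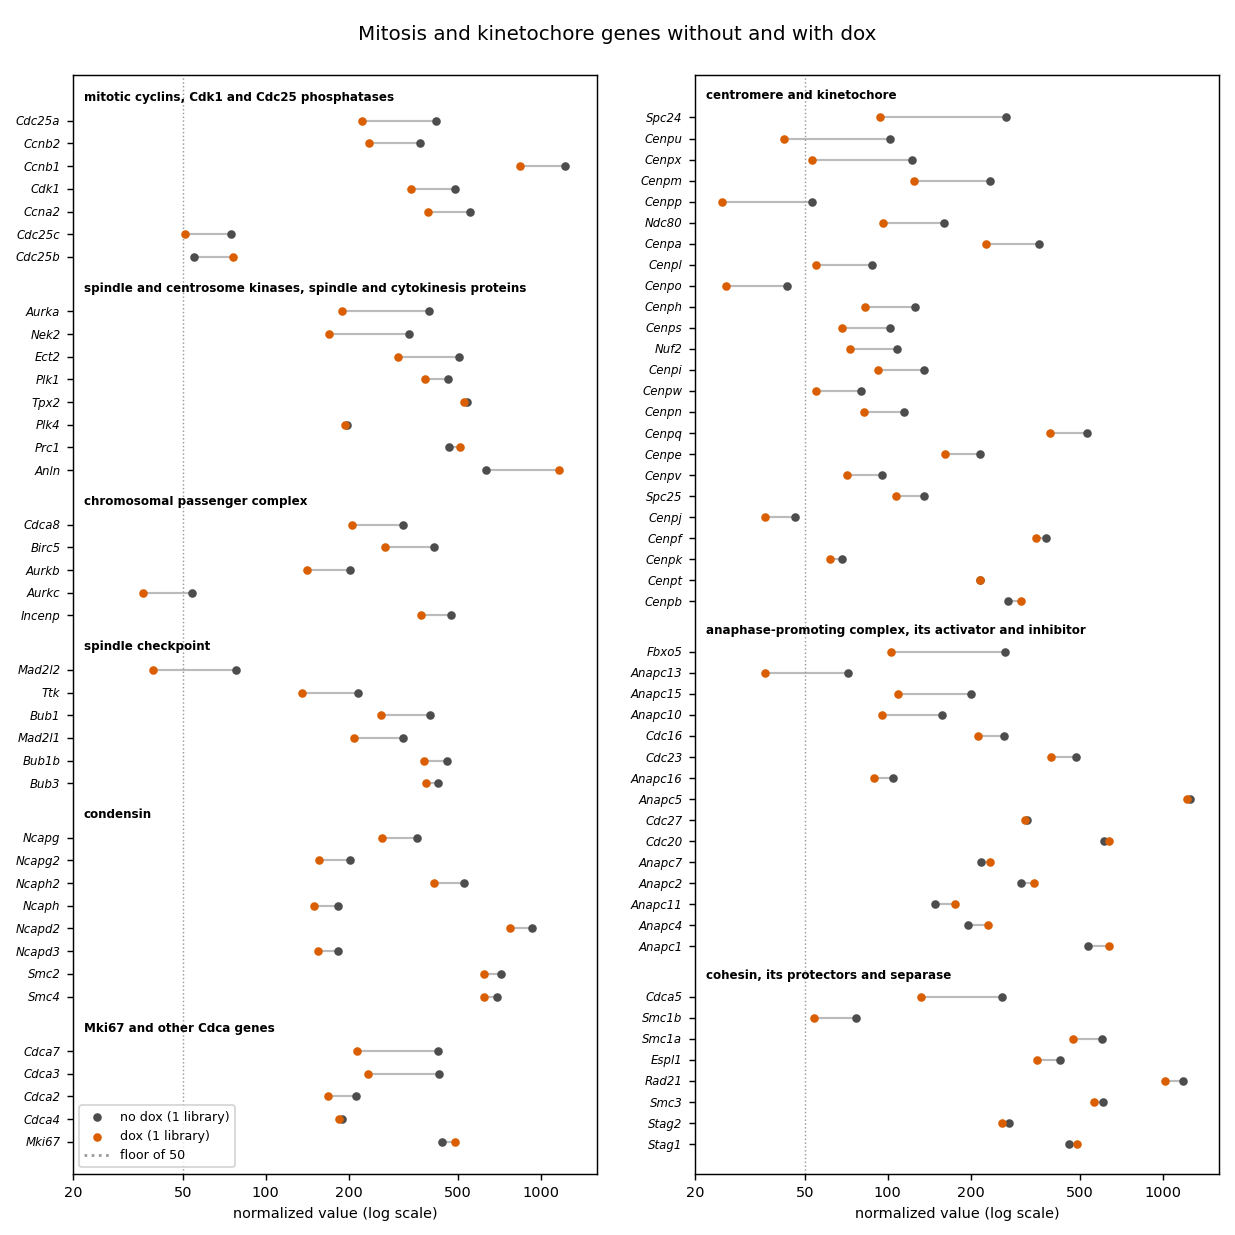
Normalized value (log scale) of each of the 86 mitosis and kinetochore genes without dox (grey) and with dox (orange), 1 library each, in groups by role. Most orange points lie to the left of the grey ones, Anln lies clearly to the right (628 and 1161), and several subunit genes of the anaphase-promoting complex have nearly coinciding points.

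The cultures also differed in ES cell markers. Of 10 such genes 9 had a log2 ratio below 0 and 7 were at least 2-fold lower (70%, against 5.49% of all tested genes). Among these was Nanog, a gene of the naive state, at 2508 without dox and 623 with dox. The summed value of the 10 genes was 18121 and 11375. Pou5f1, which encodes Oct4, stood at 3230 and 3572 and was the only 1 of the 10 with a ratio above 0. Of 14 fibroblast markers 3 reached the floor, and their summed value was 335 and 466, with Dcn, Lum and Fap at 0 in both libraries. They went opposite ways: Col5a1 stood at 20 and 220 and Col3a1, under the floor, at 2 and 39, while Fbln1 stood at 227 and 133 and Col5a2 at 54 and 30. Of 9 macrophage and blood markers 5 had a row, and 2 of these reached the floor, both only with dox: Csf1r at 1 and 111 and Cd68 at 19 and 96. The summed value of the 5 was 28 and 229. Under the floor, Lyz2 was at 0 in both libraries, Ptprc stood at 0 and 19, and Itgam went the other way, at 8 and 3. The part of these differences in the mitotic values was not tested. In bulk RNA, fewer dividing cells and less of these transcripts per cell cannot be told apart.

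Since many members are known to share promoter elements, the window from 250 bases before to 50 bases after the start site was read from RefSeq on GRCm38.p6 for 75 of the 86 members, with 87 start sites. The elements searched, on both strands, were the homology region (TTTGAA or TTCGAA), the CCAAT box (CCAAT), E2F sites (TTTCCCGC, TTTGGCGC, TTTCGCGC or TTTGCCGC) and the AP-1 site to which c-Jun binds (TGAGTCA). The other 11 members, among them Spc24 and Ccna2, had no window and were not searched. Matches of different elements overlapped in 2 of the 87 windows. A homology region stood in 49.3% of the members (37 of 75), in 16.4% of 6693 tested genes and in 21.7% of all genes of the promoter table. A CCAAT box stood in 62.7% of the members and 44.2% of the tested genes, and an E2F site in 17.3% and 5.50%. An AP-1 site stood in 3 of the 75 members, Cenpt, Cdca4 and Ncapg2, against 4.17% of the tested genes and 5.95% of all genes of the promoter table. Over all start sites of the table, 19.2% of the windows held a homology region, 37.4% a CCAAT box, 2.26% an E2F site and 5.20% an AP-1 site. These are matches of letters, not bound sites.

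Members with and without a homology region were compared by their values only. The median log2 ratio was −0.35 for the 37 tested members with it and −0.45 for the 36 without. Those at least 1.5-fold lower were 12 of the 37 and 10 of the 36. Over the 6693 tested genes with a window the medians were −0.18 for 1100 genes with it and −0.04 for 5593 without. Of the 1100 genes 225 were at least 1.5-fold lower, and of the 5593 genes 932, counts from sets of unlike size. The 13 members with an E2F site had a median of −0.52 and the 60 without −0.39, against −0.16 and −0.06 over the tested genes with a window. For the CCAAT box these medians were −0.44 in 47 members with it and −0.32 in 26 without, against −0.09 and −0.05.

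**Figure D2:**
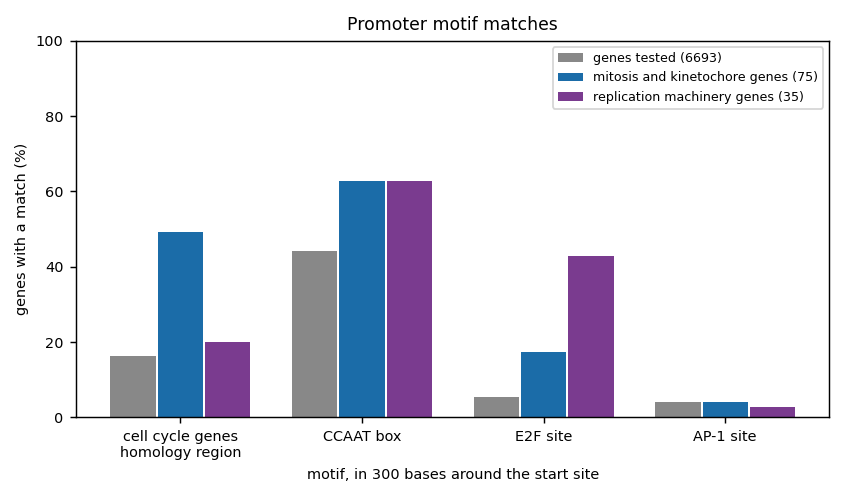
Share of genes (%) with at least 1 match of each element in the 300 bases around a start site, for tested genes (grey), mitosis and kinetochore genes (blue) and replication machinery genes (purple). Only genes with such a window are counted, 6693 of the tested genes. The homology region is at 49.3% in the mitotic genes and in 7 of 35 replication genes, and the E2F site at 17.3% and 42.9%. The AP-1 site has the lowest bar in each group.

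Promoters that hold a homology region are shown for the 3 such members with the lowest ratios and for the 3 others with the largest values without dox, so that the same element can be seen in genes that were much lower, little lower and higher with dox. Capitals mark homology regions (TTTGAA or its reverse complement TTCAAA) and CCAAT boxes (CCAAT or ATTGG). Fbxo5, which encodes Emi1, an inhibitor of the anaphase-promoting complex, stood at 267 without dox and 103 with dox (chr10:5805416-5805715, minus strand). Aurka, the gene of a kinase that builds the spindle poles, stood at 393 and 189 (chr2:172370521-172370820, minus strand). Cdca5, which encodes sororin, a protein that locks cohesin on replicated chromatids, stood at 260 and 132 (chr19:6084847-6085146, plus strand). Ncapd2, a condensin I subunit gene, stood at 926 and 772 (chr6:125191537-125191836, minus strand), and Smc2, a core condensin ATPase gene, at 715 and 621 (chr4:52438971-52439270, plus strand). Anln, whose product anillin organizes the contractile ring, stood at 628 and 1161 (chr9:22389157-22389456, minus strand).
Fbxo5: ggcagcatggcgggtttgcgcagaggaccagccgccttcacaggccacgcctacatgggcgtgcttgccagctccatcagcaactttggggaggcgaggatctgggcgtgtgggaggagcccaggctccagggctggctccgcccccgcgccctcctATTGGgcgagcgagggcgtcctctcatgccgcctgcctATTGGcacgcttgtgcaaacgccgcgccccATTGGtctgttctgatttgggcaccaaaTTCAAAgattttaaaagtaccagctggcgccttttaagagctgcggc
Aurka: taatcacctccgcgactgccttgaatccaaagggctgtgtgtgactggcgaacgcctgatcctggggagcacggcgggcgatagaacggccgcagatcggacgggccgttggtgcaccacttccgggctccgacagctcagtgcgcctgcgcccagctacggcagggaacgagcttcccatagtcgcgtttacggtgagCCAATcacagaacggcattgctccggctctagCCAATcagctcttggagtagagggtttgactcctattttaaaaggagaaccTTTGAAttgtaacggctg
Cdca5: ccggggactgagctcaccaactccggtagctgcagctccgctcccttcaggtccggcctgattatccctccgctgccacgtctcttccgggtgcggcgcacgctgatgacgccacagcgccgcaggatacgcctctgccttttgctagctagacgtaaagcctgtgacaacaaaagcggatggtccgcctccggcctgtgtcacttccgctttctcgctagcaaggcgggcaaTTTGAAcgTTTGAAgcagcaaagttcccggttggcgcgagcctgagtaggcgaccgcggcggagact
Ncapd2: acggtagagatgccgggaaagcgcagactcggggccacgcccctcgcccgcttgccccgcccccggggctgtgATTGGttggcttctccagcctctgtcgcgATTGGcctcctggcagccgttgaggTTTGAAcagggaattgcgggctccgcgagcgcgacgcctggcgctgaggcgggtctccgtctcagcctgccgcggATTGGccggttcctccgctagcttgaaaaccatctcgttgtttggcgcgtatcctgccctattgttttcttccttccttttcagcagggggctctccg
Smc2: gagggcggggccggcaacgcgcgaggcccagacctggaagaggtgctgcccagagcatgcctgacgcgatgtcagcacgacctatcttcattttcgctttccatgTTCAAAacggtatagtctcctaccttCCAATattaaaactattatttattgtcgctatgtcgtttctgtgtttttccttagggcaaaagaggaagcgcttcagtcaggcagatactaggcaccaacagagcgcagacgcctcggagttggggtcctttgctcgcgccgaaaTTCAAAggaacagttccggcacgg
Anln: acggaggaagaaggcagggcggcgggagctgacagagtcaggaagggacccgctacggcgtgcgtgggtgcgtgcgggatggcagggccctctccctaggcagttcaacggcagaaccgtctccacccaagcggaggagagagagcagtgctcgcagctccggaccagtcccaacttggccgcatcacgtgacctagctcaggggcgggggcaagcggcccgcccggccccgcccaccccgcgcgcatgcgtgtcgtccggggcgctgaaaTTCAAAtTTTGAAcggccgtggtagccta

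In these windows the homology region lay close to the start site in 5 of the 6 genes. It began 4 bases after the annotated start in Fbxo5 and 33 after it in Aurka. Anln held 2 matches, beginning 22 and 29 bases after the start, and Cdca5 held 2 just before it. Fbxo5 had 3 CCAAT boxes and Aurka 2, whereas Anln and Cdca5 had 0. These 6 were printed because they hold the element, so its presence in them is no result.

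Of the 7 cyclin, Cdk1 and Cdc25 genes 6 had a log2 ratio below 0 (85.7%, against 54.9% of all tested genes). At least 1.5-fold lower were 2 of these, Ccnb2 and Cdc25a (28.6%, against 17.7%). Ccnb1, the cyclin that activates Cdk1 at entry, stood at 1224 without dox and 841 with dox, 1.45-fold lower. Its relative Ccnb2 stood at 364 and 237, 1.51-fold lower, and Ccna2, a cyclin of S phase and G2, at 551 and 389. Cdk1 itself, the master kinase of mitosis, stood at 488 and 336, 1.44-fold lower. These 4 partners therefore were all lower, from 1.41-fold to 1.51-fold. The Cdc25 phosphatases, which remove the inhibitory phosphates from the kinase, differed among themselves. Cdc25a, also active at the start of S phase, stood at 416 and 223, 1.83-fold lower. Cdc25c stood at 75 and 51, and Cdc25b had the larger value with dox, at 55 and 76. The median log2 ratio of these 7 genes was −0.53.

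Among the 9 role groups, spindle kinases and their partners had the widest range of log2 ratios, from −1.02 to 0.88. Of 8 genes 6 had a ratio below 0 (75%, against 54.9% of all tested genes), with a median of −0.15. At 1.5-fold 3 were lower (37.5%, against 17.7%) and 1 higher (12.5%, against 16.7%). Aurka was 2.03-fold lower, whereas Tpx2, which encodes the protein that activates Aurora A on spindle microtubules, stood at 536 and 526, nearly equal. Nek2, a kinase gene of centrosome separation, was 1.90-fold lower, at 332 and 170. Plk1, a kinase gene of many mitotic steps, stood at 460 and 378, and Plk4, whose product drives centriole duplication, at 197 and 194, nearly equal. Late in mitosis, Prc1 bundles the microtubules of the midzone, and its gene stood at 463 and 509. Ect2, which encodes the exchange factor that activates RhoA for the cleavage furrow, stood at 502 and 302, 1.64-fold lower. Anln, whose product binds RhoA and actin at the same furrow, was 1.84-fold higher. These furrow genes thus lay on opposite sides, and Anln, at chromosome 9 from 22332012 to 22389188 on the minus strand, was higher under all 7 alternative settings tried.

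**Figure D3:**
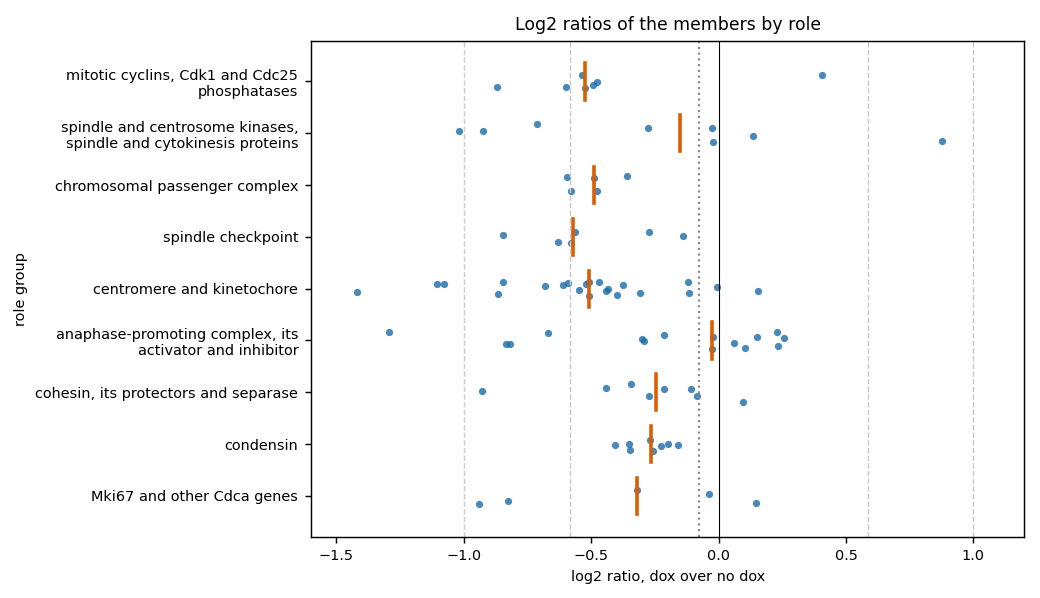
Log2 ratio (dox over no dox) of the 84 tested members, 1 point per gene, in 9 groups by role, with the group median as an orange bar. Dashed lines mark 1.5-fold and 2-fold and the dotted line the median of all tested genes, −0.08. All condensin, checkpoint and passenger complex genes lie below 0, while the anaphase-promoting complex group is centred near it.

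The chromosomal passenger complex corrects faulty attachments and later directs cytokinesis. All 5 of its genes had a log2 ratio below 0, against 54.9% of all tested genes, with a median of −0.49. Aurkb, its kinase, stood at 202 and 141 and Incenp, its scaffold, at 472 and 366. Birc5, which encodes survivin, stood at 410 and 271, and Cdca8, which encodes borealin, at 316 and 206. Their ratios lay close together, from 1.28-fold to 1.51-fold lower. Aurkc, a paralog used mainly in meiosis, stood at 54 and 36, and reads shared by Aurora paralogs can be divided between them by the authors' counting.

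All 6 spindle checkpoint genes also had a ratio below 0, against 54.9% of all tested genes, with a median log2 ratio of −0.57. Ttk, which encodes the kinase Mps1 that starts the checkpoint signal, stood at 216 and 136, 1.55-fold lower. Bub1, a kinase recruited to unattached kinetochores, stood at 396 and 262, and Mad2l1, whose product Mad2 binds Cdc20, at 314 and 209. Bub1b, which encodes BubR1, stood at 455 and 375 and its partner Bub3 at 421 and 381. Mad2l2 stood at 78 and 39, 1.80-fold lower, the lowest ratio of the group as deposited, while with the trend on transcript length removed Mad2l1 was lower, at −0.81 against −0.61. The product of Mad2l2, Rev7, is known mostly for DNA repair.

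Centromere and kinetochore genes were the largest group. Of 22 tested genes 21 had a ratio below 0 (95.5%, against 54.9% of all tested genes), with a median log2 ratio of −0.51. At least 1.5-fold lower were 8 (36.4%, against 17.7%). Spc24, a subunit gene of the Ndc80 complex that grips microtubules, had the lowest ratio of all 84 members, at 268 without dox and 94 with dox, 2.67-fold lower. It lies on chromosome 9 from 21755442 to 21760303 on the minus strand. Its partners in the complex differed less. Ndc80 stood at 160 and 96, Nuf2 at 108 and 73, and Spc25, which pairs directly with Spc24, at 135 and 107, only 1.24-fold lower.

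The inner kinetochore is a network of proteins that stays at the centromere through the cell cycle. All 13 of its tested genes were below 0, against 54.9% of all tested genes, with a median of −0.52. However, Cenpk and Cenpt, both near 0, were at 0.03 with the trend on transcript length removed. Cenpu, on chromosome 8 from 46552028 to 46580007, stood at 102 and 42, 2.15-fold lower. Its exons share 1069 bases with those of Primpol on the opposite strand, which stood at 46 and 33, and reads there cannot be assigned if the library kept no strand. Cenpx, on chromosome 11 from 120710942 to 120713738, stood at 123 and 53, 2.11-fold lower. With a pseudocount of 50 the log2 ratios of Cenpu and Cenpx were −0.72 and −0.75, short of 2-fold. The product of Cenpx forms a histone-like complex with those of Cenps, at 102 and 68, Cenpw, at 80 and 55, and Cenpt, at 217 and 216. Members of this 1 complex therefore ranged from nearly equal values to 2.11-fold lower. Cenpm stood at 236 and 125, 1.82-fold lower, Cenpp at 53 and 25 and Cenpl at 88 and 55. Cenph at 126 and 83, Cenpi at 135 and 92, Cenpn at 115 and 82, Cenpq at 527 and 388, and Cenpk at 68 and 62 were within 1.5-fold.

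Other centromere proteins varied. Cenpa, the histone variant that marks the centromere, stood at 353 and 228, 1.53-fold lower. Cenpe, a motor that moves chromosomes along the spindle, stood at 217 and 162, and Cenpf, a large protein of the outer kinetochore, at 376 and 345. Cenpv stood at 95 and 71. Cenpb, whose product binds a repeat in centromeric DNA, was the only tested gene of this group with a ratio above 0, at 274 and 306. Cenpo, at 43 and 26, and Cenpj, a centriole gene at 46 and 36, were under the floor and not tested. They too had smaller values with dox.

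Subunit genes of the anaphase-promoting complex showed no common direction. Of the 13 subunits 8 had a ratio below 0 (61.5%, against 54.9% of all tested genes). The median was −0.03, close to that of all tested genes. The catalytic pair Anapc2 and Anapc11 stood at 306 and 341 and at 148 and 175. The scaffold genes Anapc1, Anapc4 and Anapc5 stood at 533 and 638, at 195 and 231 and at 1247 and 1224. Cdc27, Cdc16 and Cdc23, the subunits with tetratricopeptide repeats, stood at 320 and 315, at 265 and 213 and at 484 and 393, and Anapc7, of the same kind, at 219 and 236. All of these were within 1.5-fold, and Anapc1, Anapc5 and Cdc27 changed sign under a scaling (Anapc1 to −0.02 with the trend on transcript length removed, Anapc5 and Cdc27 to 0.05 and 0.06 with the median of all genes set to 0). Of the smaller subunits 3 were at least 1.5-fold lower, which is 23.1% of the 13, against 17.7% of all tested genes. These were Anapc13 at 72 and 36, Anapc15, whose product helps to release checkpoint proteins, at 200 and 109, and Anapc10, part of the substrate receptor, at 157 and 95. Anapc16 stood at 105 and 89. The regulators of the complex parted: the activator Cdc20 stood at 611 and 638, nearly equal, while the inhibitor gene Fbxo5 was 2.45-fold lower, the second lowest ratio of the 84.

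Cohesin genes differed little. The ring genes Smc1a, at 600 and 470, Smc3, at 605 and 561, and Rad21, at 1177 and 1012, were all slightly lower, and the alternative ring subunits Stag1 and Stag2 stood at 456 and 488 and at 276 and 260, with Stag1 at −0.10 once the trend on length was removed. Smc1b, a meiotic form of Smc1a, stood at 77 and 54. Espl1, which encodes separase, the protease that opens the ring at anaphase, stood at 423 and 348. Sororin was the exception, since Cdca5 was 1.90-fold lower while the ring genes were at most 1.27-fold lower.

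All 8 condensin genes had smaller values with dox, from 1.12-fold to 1.32-fold, whereas 54.9% of all tested genes had a log2 ratio below 0. Smc4, which pairs with Smc2, stood at 692 and 618. The condensin I genes Ncapg and Ncaph stood at 353 and 264 and at 183 and 150. The condensin II genes Ncapd3, Ncapg2 and Ncaph2 stood at 183 and 155, at 202 and 156 and at 523 and 409. Condensin I, which acts after the nuclear envelope breaks down, and condensin II, which is nuclear throughout, had median log2 ratios of −0.27 and −0.35.

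Mki67, which encodes Ki-67, the usual marker of proliferating cells, stood at 438 without dox and 486 with dox, a log2 ratio of 0.15 that was −0.15 with the trend on transcript length removed. The other genes named for association with cell division were Cdca7, a chromatin remodelling partner, at 422 and 215, 1.92-fold lower, and Cdca3, a mitotic entry factor, at 425 and 235, 1.78-fold lower. Cdca2, which encodes the phosphatase targeting protein Repo-Man, stood at 212 and 168, and Cdca4 at 189 and 184. As deposited, Mki67 thus lay on the other side of 0 from Cdk1 and its cyclins, and with the length trend removed it lay on the same side.

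**Figure D4:**
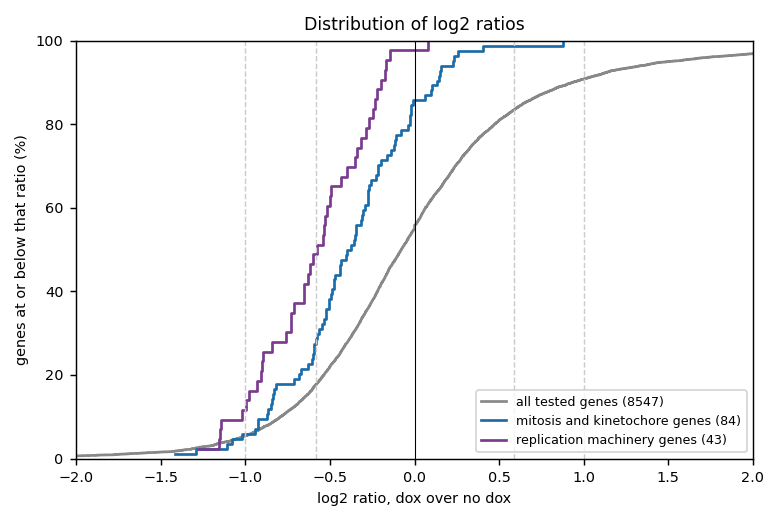
Cumulative share (%) of genes at or below each log2 ratio for all 8547 tested genes (grey), the 84 mitosis and kinetochore genes (blue) and 43 replication machinery genes (purple); dashed lines mark 1.5-fold and 2-fold. Around −0.5 the mitotic curve lies between the others, and both gene lists end well before the grey curve on the right.

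Other genes of mitosis were taken from lists chosen by role. Of 20 tested kinetochore genes outside the 86, 19 had a ratio below 0 (95%, against 54.9% of all tested genes), with a median of −0.49. At 1.5-fold 5 were lower (25%, against 17.7%) and 1 higher (5%, against 16.7%). Ska1, of the complex that follows shortening microtubules, stood at 56 and 22. The exception was Zwint, which encodes a kinetochore linker, at 456 without dox and 1050 with dox. Hjurp, the chaperone that loads Cenpa, stood at 513 and 455. Of 30 mitotic kinesin and spindle genes 24 had a ratio below 0 (80%), with a median of −0.35. At 1.5-fold 5 were lower (16.7%) and 0 higher. That share of lower genes is close to the 17.7% of all tested genes and is no result about them. Cep55, of the final cut between daughter cells, stood at 387 and 187, and Kif11, the motor that separates the poles, at 598 and 455. Kif20a, a motor of the midzone, stood at 657 and 540, while the spindle proteins Ckap5 and Numa1 stood at 618 and 609 and at 613 and 671. Of 18 regulators of mitotic entry and exit 13 were below 0 (72.2%), with a median of −0.32. Pttg1, which encodes securin, stood at 121 and 53. Top2a, the topoisomerase that untangles chromatids, stood at 2332 and 1366, Hmgb2 at 2870 and 2156 and Ccnf at 666 and 608. Arpp19, a phosphatase inhibitor gene of mitotic entry, was 1 of 5 genes of that list above 0, at 254 and 415.

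DNA replication genes, which act earlier in the same cycle, gave a lower median than the mitotic genes. Of 43 such genes 42 had a ratio below 0 (97.7%, against 54.9% of all tested genes), with a median of −0.57. At least 1.5-fold lower were 21 (48.8%, against 17.7%). Mcm7, of the replicative helicase, stood at 2056 and 921, and Cdc6, which loads it, at 261 and 102. The helicase genes Mcm5 and Mcm3 stood at 2326 and 1417 and at 1456 and 923. Besides Mcm7 and Cdc6, the genes at least 2-fold lower were the polymerase gene Pold2, at 242 and 103, the primase gene Prim1, at 207 and 88, and Fen1, a nuclease gene of lagging strands, at 383 and 184. The replication genes at least 2-fold lower were 5 (11.6%, against 5.49% of all tested genes). The difference between the mitotic and replication lists was not tested.

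Longer transcripts had higher ratios, among these genes as over all genes. Spearman's rho between log2 ratio and the length of the longest annotated transcript was 0.45 across the 84 members and 0.27 across 8472 tested genes. With the mean value of a gene in place of length, rho was 0.37 across the members and 0.03 across the tested genes. Length and value were not separated among the members. These are genes of the same pair of libraries and not independent replicates. The 42 members with transcripts under 3367 nt had a median log2 ratio of −0.51 and included all 5 that were at least 2-fold lower (11.9%), while the 3883 tested genes of that length had a median of −0.23 and 7.85% of them were at least 2-fold lower. The 42 longer members had −0.27, and the 4589 longer genes 0.04. The members' median was thus below that of all genes in both classes of length. With the trend on length removed, the median of the members was −0.34 and that of all genes −0.07. On that scale 3 members were at least 2-fold lower: Spc24 at −1.22, Fbxo5 at −1.13 and Cenpu at −1.05. They are 3.57% of the members, against 5.02% of all tested genes on that scale. Aurka became −0.85 and Cenpx −0.74, and Mki67 went from 0.15 to −0.15.

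**Figure D5:**
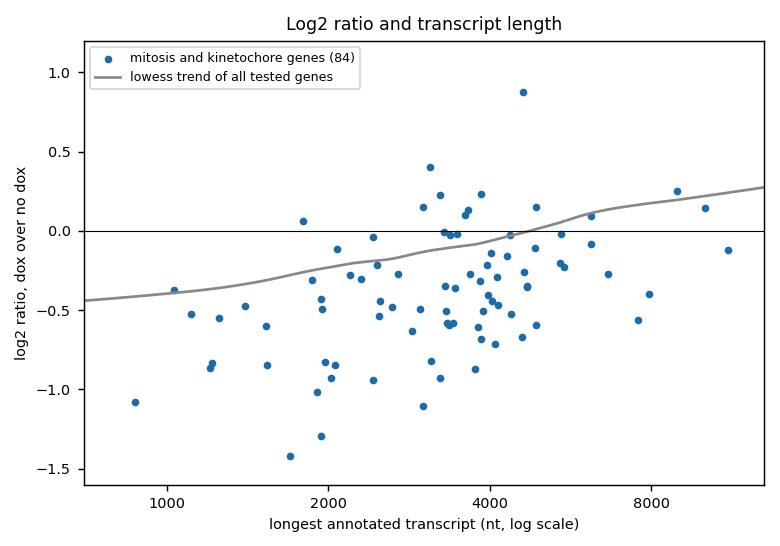
Log2 ratio (dox over no dox) against the length of the longest annotated transcript (nt, log scale) for the 84 tested members (points), with the smoothed trend of all tested genes (grey line). Most points lie under the line at every length, and the lowest points have short transcripts.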

How the data were processed

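Total RNA was extracted with TRIzol, and a TruSeq RNA kit was used for the libraries, per the labels' protocols. The tools named are bcl2fastq, Bowtie2 and RSEM, with mm10, per the submitters' processing notes. No source used here gives their versions, the annotation or the normalization. The deposited values, 1 column per library, were handled as a score: whole numbers taken to be normalized by the authors, because both libraries had quartiles of 14, 62 and 184. Depth is therefore unknown, no counting error is given and no count model was used. Other sample columns left unused numbered 0. The log2 ratio used a pseudocount of 10 and a floor of 50 on the larger value, with calls at 2-fold and 1.5-fold. Members, lists and thresholds were chosen with earlier results of these data known. Every member at or above the floor may be named, and, of each other list, members past 2-fold and the 3 with the largest values, of which 1 is not reported here. Kif11, Arpp19, Foxm1, E2f1 and Esco1 were named after their values were seen. Gene positions and transcript lengths came from GENCODE M21 on GRCm38, the assembly of mm10, in which all 86 members were found, and the length trend was removed by lowess (fraction 0.3). The steps were tested on simulated data. Python 3.11.15, pandas 2.3.3, scipy 1.17.1 and statsmodels 0.14.6 were used.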

Additional observations from a re-analysis of the deposited data

How the results depend on the processing

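With 1 library per group no replicate could be left out, and the settings below show only how the arithmetic moves these values. No paired analysis was possible because each group had 1 library. Of 7 alternatives, the median of the 84 members stayed below 0 under each, from −0.42 with a pseudocount of 1 to −0.30 with a floor of 250. With a pseudocount of 50, the members at least 2-fold lower numbered 2 and those at least 1.5-fold lower 13, the share of all genes at least 2-fold lower was 2.00%, and the centromere and kinetochore median was −0.37. With a floor of 250, which left 47 members, these counts were 3 (6.38%, against 4.71% of all 3118 genes) and 12 (25.5%, against 15.7%), and the medians were −0.28 for spindle kinases and proteins, −0.42 for the checkpoint and −0.83 for the group of Mki67. With the median of all genes set to 0, the anaphase-promoting complex group changed sign, to 0.051. With the length trend removed, 3 members were at least 2-fold lower, and the passenger complex and cohesin medians were −0.34 and −0.35. Of the 72 members below 0, 65 were below 0 under every setting that tested them, and of the 12 above 0, 9 stayed above. The exons of 14 members overlap those of another gene of the table on the opposite strand, at least 500 bases in 8 of them, so reads there are uncertain if strand was not kept. Among these 8, Cdc23 shares 1271 exon bases with Kif20a, so the values of these genes may not be separate observations.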

Other observations

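Most regulators that control transcription of these genes were lower with dox, and some were higher. Of 19 tested genes of the MuvB, B-Myb, FoxM1 and E2F list, 14 had a log2 ratio below 0 (73.7%, against 54.9% of all tested genes). Their median was −0.14, against −0.08 for all tested genes, and −0.25 against −0.07 with the trend on transcript length removed. At 1.5-fold 2 were lower (10.5%, against 17.7%) and 1 higher (5.26%, against 16.7%). Mybl2, which encodes B-Myb, an activator of G2 and mitotic genes, stood at 1645 without dox and 795 with dox. Lin37, a subunit of the MuvB core, stood at 100 and 29. Foxm1, another activator of mitotic genes, stood at 191 and 268. E2f1, an activator of S phase genes, stood at 196 and 131, whereas E2f8, a repressor of the same family, stood at 53 and 257. Other genes of the list with large values were Rbbp4 at 2224 and 1654 and E2f4 at 549 and 675. Hence B-Myb and FoxM1 genes lay on opposite sides of equality in the same libraries.

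Of 8 genes that load or release cohesin, 6 had a ratio below 0 (75%, against 54.9% of all tested genes). The median was −0.08, close to that of all genes, but −0.28 against −0.07 with the trend on transcript length removed. Esco2, whose product acetylates cohesin in S phase, was the exception, at 349 and 162. Its relative Esco1 stood at 149 and 152, and Wapl, the release factor, at 1104 and 1090. Ctcf, whose product positions cohesin on chromatin, stood at 624 and 592, and the regulator gene Pds5a at 433 and 499. Like Cdca5, the sororin gene, Esco2 acts in the establishment of cohesion.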
